A study of Mus musculus with 4 samples.

Results

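Tubulins and microtubule motors were examined in lenses of mice with a conditional knockout of Celf1, which encodes an RNA-binding protein. Their members were all genes on the array with a probe whose symbol begins with Tuba, Tubb, Tubg, Klc, Dync, Dynl or Dctn, or with Kif and a number. The prefix Map1 was part of the same rule and found no member, because the files hold these genes under older names. The rule took 147 probes of 78 genes. Of these, 79 probes of 53 genes were detected above background (detection p-value under 0.05) on at least 2 of the 4 arrays, among 16262 detected probes of 11516 genes in all. The 53 detected genes were 12 tubulins, 24 kinesins and 17 dynein and dynactin genes. The other 25 genes were 10 tubulins, 13 kinesins and 2 dynein light chains, and they are accounted for below.

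The study compared lenses at postnatal day 6 on Illumina arrays, with RNA of 1 lens on each array and n = 2 in each group. Celf1 cKO mice carried a Celf1 lacZKI allele, a Celf1 flox allele and the Pax6GFPCre transgene, which drives Cre recombinase in the lens from its placode stage. Control mice were Celf1 lacZKI/+, so both groups carried the lacZKI allele and Control lenses are not wild type. Whether the Control mice also carried the transgene was not given in the sources used here. The mice were of mixed background, and the labels do not say that the lenses of a group came from different animals, so that the p-values measure the spread between these lenses only.

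Microtubules are hollow polymers of alpha- and beta-tubulin, and gamma-tubulin starts their growth. Most kinesins walk along them towards the plus end and carry vesicles, organelles and RNA, while some shorten microtubules or move chromosomes during division. Cytoplasmic dynein, with its activator dynactin, carries cargo towards the minus end. In the lens, epithelial cells divide and then elongate into long fiber cells that hold microtubules along their length and lose their organelles.

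Facts of the arrays as a whole touch all results. More probes were detected on the cKO arrays (16261 and 16925) than on the Control arrays (14542 and 14180), and array brightness cannot be told apart from genotype. Celf1 was detected on all 4 arrays, and its mean log2 signal was lower in cKO lenses (log2 fold change, called log2 change below, -1.43 ± 0.19 SE, limma adjusted p = 0.0098). Transcripts of the sex chromosomes differed between the genotypes (Xist at least 6.09-fold higher in cKO lenses, adjusted p = 0.00089, and Ddx3y lower by a log2 change of -3.09 ± 0.55 SE, adjusted p = 0.020), so that genotype and sex cannot be told apart. The cKO lenses disagreed for Ddx3y, with log2 signals of 6.81 in cKO A and 4.83 in cKO B (8.99 and 8.82 in Control lenses). Xist was 7.42 and 7.27 in these cKO lenses, and the labels do not give the sex of any lens. All 11 lens fiber markers looked at were detected on all 4 arrays, and 5 of 7 lens epithelium markers were. Some markers of cell types also differed between the groups, and their part in the results below was not tested. Of the fiber markers 2 were reduced in cKO lenses (Bfsp2 -0.76 and Dnase2b -1.60), with a median of -0.12 for the list. The epithelium markers had a median of -0.79, with Foxe3 reduced. Of 3 tested blood markers, Slc4a1 was reduced (-1.03). Hba-a1 (-0.08) and Hbb-b1 (0.05) were not called, and the median of this list was -0.08. Of 2 tested macrophage markers, Cd68, not above background on either Control array, was at least 1.26-fold higher (adjusted p = 0.038). The other, Csf1r, was not called (-0.11). In whole lenses, fewer cells of a type and less RNA per cell cannot be told apart.

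In cKO lenses, RNA of 8 members was elevated and RNA of 3 was reduced. The elevated genes included accessory chains of motors, such as kinesin light chain 1 (Klc1) and the dynein light intermediate chain Dync1li2, the kinesin-2 subunits Kif3a and Kif3c, and the alpha-tubulin Tuba1c. Of the 53 members, 11 were called, or 20.8%, against 11.6% of all genes. A gene was called at a limma adjusted p under 0.05, a log2 change beyond 0.58 in either direction and a mean log2 signal above 4.6. Elevated in cKO lenses were 8 members, or 15.1% against 6.01% of all genes: Klc1, Tuba1c, Dync1li2, Kif26b, Kif3c, Kif3a, Kif1a and Dync1i2. Reduced were 3 members, or 5.66% against 5.64% of all genes: Tubb4a, Kif2c and Kif21a. An unadjusted p under 0.05 was reached by 17 of the 53, or 32.1%, the share among all genes being 31.9%. Each lens was also left out in turn, which leaves 1 lens in its group, assumed there to vary like the 2 lenses of the other group. The share of members called came close to that of all genes with the deposited normalized table (9.43% against 10.3%) and with cKO A (5.66% against 5.6%), Control A (11.5% against 12.2%) or Control B (1.89% against 1.52%) left out, and with cKO B left out 0 members were called by limma (14 at an unadjusted p under 0.05), against 1.56% of all genes.

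By family, the calls were 2 of 12 tubulins (16.7%), 7 of 24 kinesins (29.2%), and 2 of 17 dynein and dynactin genes (11.8%), against the 11.6% of all genes. The median log2 change was 0.11 for tubulins, 0.14 for kinesins and 0.05 for dynein and dynactin, against 0.0097 for all genes. The values of the cKO and Control lenses did not overlap for 35 members, or 66.0%, against 62.3% of all genes, a share near that of all genes. These family medians shifted with the scaling between arrays (given with the processing alternatives), and the families were not tested against each other.

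**Figure D1:**
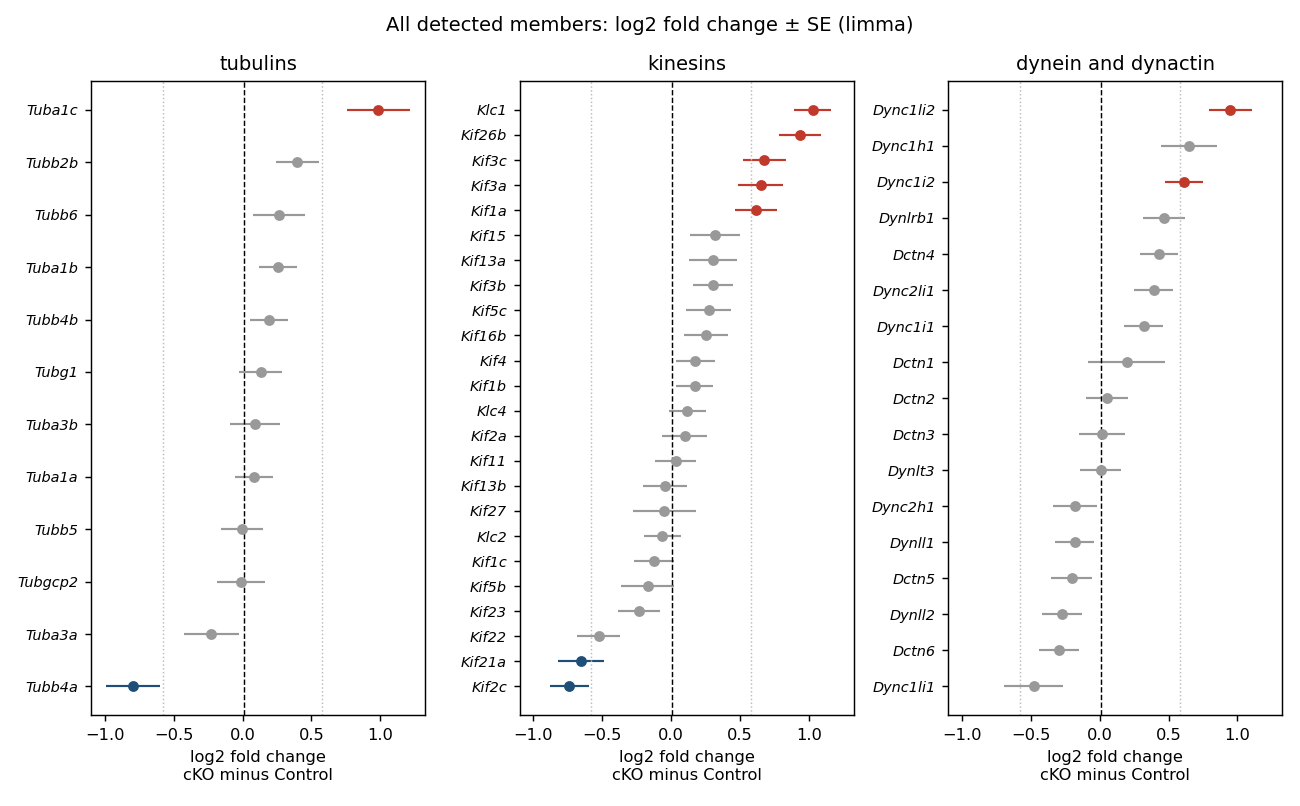
Log2 fold change of each detected member, cKO minus Control, with its SE (limma, 2 lenses in each group), by family. Red and blue points are called elevated and reduced, grey points are not called, dotted lines stand at the fold threshold of 0.58 in either direction and the dashed line at the median of all genes (0.0097). Kinesins hold the most called genes (7 of 24), against 2 of 12 tubulins and 2 of 17 dynein and dynactin genes.

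**Figure D2:**
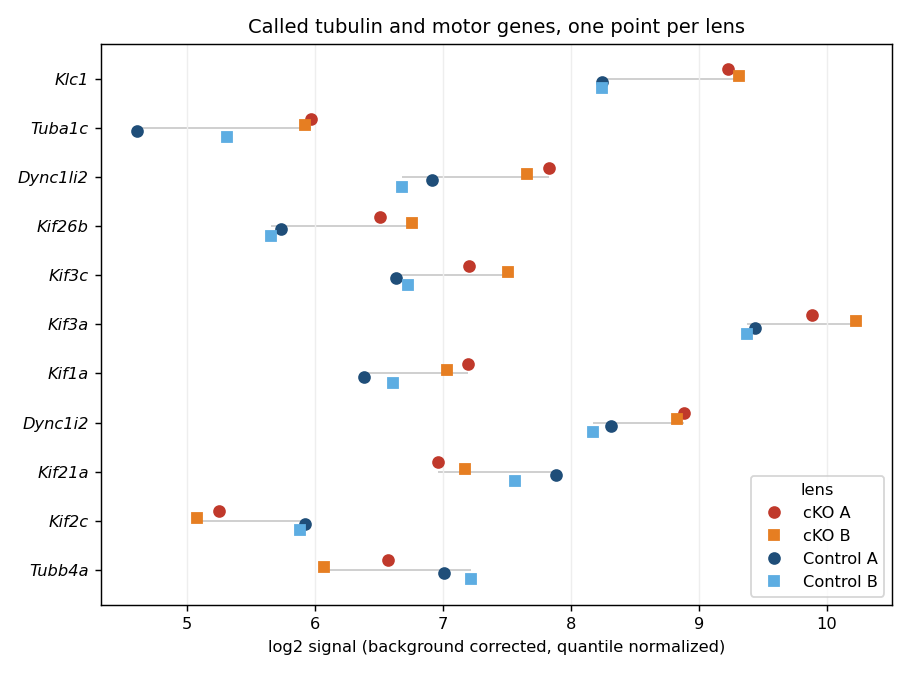
Log2 signal of the 11 called members in each lens, with circles for replicate A and squares for replicate B, ordered by log2 change. For each of the 11 genes both cKO points lie on 1 side of both Control points. The horizontal axis compares lenses within a row, since different probes do not share a scale.

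Among the alpha-tubulins, Tuba1c was elevated. Tuba1c, named Tuba6 in the files, encodes a broadly expressed alpha-tubulin. It was read by a single probe, shown here because it lies where tubulin isotypes differ most, in the acidic tail at the end of the protein. Capitals mark codons for the acidic amino acids (GAA, GAG, GAC and GAT), read in steps of 3 from base 3 of the probe, and 9 of its 16 codons are of this kind.
Tuba1c probe: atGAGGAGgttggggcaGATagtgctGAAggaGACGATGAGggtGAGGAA

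The log2 signal of Tuba1c was 5.97 in cKO A, 5.93 in cKO B, 4.61 in Control A and 5.31 in Control B. The unnormalized intensity was 105.6 and 108.3 in the cKO lenses and 53.1 and 56.3 in the Control lenses. Both cKO lenses were above both Control lenses on either scale, though on the unnormalized one the cKO arrays were brighter as a whole. The probe was not detected above background in Control A. The log2 change was 0.99 ± 0.23 (SE, limma adjusted p = 0.039). It was 0.55 with a background offset of 50 and 0.60 without background correction. Of 14 other ways of processing the arrays, Tuba1c was called in 11. It was not called with that offset, with the deposited normalized table or with no detection filter. The call was lost with Control A (0.65, adjusted p = 0.051), cKO A (0.91, adjusted p = 0.12) or cKO B (0.95, adjusted p = 0.16) left out. With Control B left out the gene was called (1.46, adjusted p = 0.037), but against Control A alone, where it was not above background, so that this value is no check of the call.

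The other alpha-tubulins were not called. Tuba1b, a major alpha-tubulin of dividing and other cells, had log2 signals of 14.27 and 14.13 in cKO lenses and 13.93 and 13.95 in Control lenses. Its log2 change was 0.25 (95% confidence interval -0.07 to 0.58, adjusted p = 0.25). Tuba1a, the alpha-tubulin best known from developing neurons, had a log2 change of 0.08 (95% interval -0.24 to 0.41), with 0.03 and 0.14 for its 2 probes. Changes above 1.5-fold therefore lie outside the interval of Tuba1a and at the edge of that of Tuba1b. Tuba3a (-0.23) and Tuba3b (0.09) overlapped between the groups.

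Among the beta-tubulins, Tubb4a was reduced and the others were not called. Tubb4a, named Tubb4 in the files, is an isotype best known from neurons and myelinating glia. Its log2 signal was 6.57 in cKO A, 6.07 in cKO B, 7.01 in Control A and 7.22 in Control B, with no overlap. The log2 change was -0.79 ± 0.20 (SE, adjusted p = 0.046). The unnormalized intensity did overlap, at 147.1 and 117.9 in cKO lenses and 140.0 and 125.9 in Control lenses, so that the reduction is relative to the brighter cKO arrays. The call held with cKO A left out (-1.02, adjusted p = 0.040) but not with cKO B (-0.54, adjusted p = 0.26), Control A (-0.91, adjusted p = 0.064) or Control B (-0.71, adjusted p = 0.16) left out. Of 14 markers of neurons and retina, 13 did not pass the detection filter, among them Crx, Snap25 and Elavl3. The other, Pde6b, was above background on the cKO arrays and on none of the Control arrays (at least 1.10-fold higher, adjusted p = 0.059), and its part in the result was not tested.

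Tubb5, a widely expressed beta-tubulin, had log2 signals of 13.47 and 13.25 in cKO lenses and 13.28 and 13.44 in Control lenses. The groups overlapped, and the log2 change was -0.0024 (95% interval -0.36 to 0.36). With the deposited normalized table it was -0.43 (adjusted p = 0.14), outside that interval, and Tuba1b was -0.20 (adjusted p = 0.38) there, of opposite sign. Tubb4b, named Tubb2c in the files, had a log2 change of 0.19 (-0.13 to 0.51), and Tubb6 had 0.26 (-0.18 to 0.71). Tubb2b, an isotype with a known role in neuronal migration, had 5 probes with log2 changes of 0.24, 0.15, 0.62, 0.80 and 0.18 in the order of their place in the transcript. Their mean was 0.40 ± 0.16 (SE, adjusted p = 0.14), and no probe of Tubb2b differed from the others of the gene at an adjusted p under 0.05. The gamma-tubulin Tubg1 (0.13) and the ring complex member Tubgcp2 (-0.01), both part of the machinery that starts microtubules, overlapped between groups, and neither had an unadjusted p under 0.05.

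The kinesins held the largest change among the members in the reported fit, that of Klc1. With 1 lens left out, Dync1li2 (1.08 without Control A, 1.03 without cKO B) or Tuba1c (1.46 without Control B) lay above it. Klc1 encodes a light chain that links kinesin-1 to its cargo, and its transcripts differ in the part that encodes the end of the protein. The log2 signal of Klc1 was 9.23 in cKO A, 9.32 in cKO B, 8.24 in Control A and 8.24 in Control B. The Control lenses differed by 0.0020 and both lay below both cKO lenses. The log2 change was 1.03 ± 0.14 (SE, adjusted p = 0.0090), or 2.04-fold. It is the mean of 5 probes with changes from 0.37 to 1.62, described below. Klc1 was called under all 15 other ways of processing the arrays. It was also called with cKO A (1.07, adjusted p = 0.030) or Control A (1.03, adjusted p = 0.027) left out, but not with cKO B (0.98, adjusted p = 0.073) or Control B (1.03, adjusted p = 0.055) left out.

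Klc1 was read by 5 probes designed on different transcripts. Shown are the 29 bases that both probes of the end of transcript variant a share, the 23 bases that both inner probes of variant d share, and the first 30 bases of the probe at the end of variant d, because these probes gave different changes. No bases are in capitals, since each line is the probe part itself.
Klc1 variant a end, shared by 2 probes: gaagacaggccttagtgtcacgcaggttt
Klc1 variant d, shared by 2 inner probes: cagagacattggaagaagccgcc
Klc1 variant d end, first part of its probe: acacctctagtagggtcttggagagccact

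The probes of the variant a end lie on chromosome 12 at 113032813 to 113032862 and 113032834 to 113032883. The files name no genome build. They place one inner probe of variant d at 112235366 and the other at 113025740, although their sequences overlap, so that positions from more than 1 build stand in the files and are not compared between probes.

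The change was larger at the variant a end of Klc1 than at the variant d end. The unnormalized intensity of the first variant a probe was 1964.7 in cKO A, 2229.1 in cKO B, 484.2 in Control A and 370.2 in Control B. On the log2 scale its signal was 10.56 and 10.66 in cKO lenses and 9.06 and 9.04 in Control lenses, a log2 change of 1.56 ± 0.15 (SE). The second, overlapping probe gave 1.62 ± 0.15. The inner probes of variant d, whose sequence may also be held by other variants, gave 0.75 ± 0.19 and 0.84 ± 0.18. The probe at the variant d end had log2 signals of 9.96 and 9.93 in cKO lenses and 9.67 and 9.47 in Control lenses. Its log2 change was 0.37 ± 0.16, with an adjusted p of 0.16 in a limma fit of single probes. All 5 probes were higher in both cKO lenses than in both Control lenses.

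**Figure D3:**
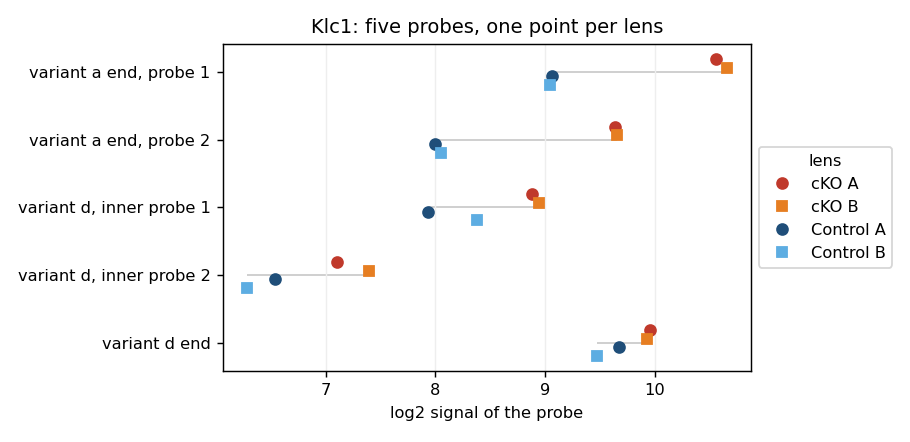
Log2 signal of the 5 Klc1 probes in each lens, by the transcript they were designed on. The gap between cKO and Control points is widest for both probes of the variant a end (1.56 and 1.62) and narrowest for the variant d end (0.37), and levels of different probes do not share a scale.

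The difference between the probes was tested with diffSplice of limma, which sets each probe against the others of its gene. The variant d end was 0.82 below the other Klc1 probes on the log2 scale (adjusted p = 0.031). The variant a probes were 0.66 and 0.74 above the others, with adjusted p = 0.080 and 0.0503. Of all 8163 probes tested this way, 1.25% reached an adjusted p under 0.05, and among the members these were 3 of 49 probes, in Klc1 and Kif23. The test treats probes read on 1 array as independent. Per lens, the mean of the variant a probes minus the variant d end probe was 0.14 and 0.22 in cKO lenses and -1.14 and -0.93 in Control lenses. These differences did not overlap between the groups, with the smallest p that 2 against 2 lenses allow (0.333, exact permutation test, two-sided).

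The other light chains were not called, with log2 changes of -0.06 for Klc2 and 0.12 for Klc4. The kinesin-1 heavy chains, the motors that Klc1 binds, were not called either. Kif5b had a log2 change of -0.17 (95% interval -0.63 to 0.29), with overlapping groups and detection on 1 of the Control arrays. Its log2 signals of 4.53 to 5.05 lay near the lowest detected signals of the arrays (4.56 to 4.76). Kif5c had log2 signals of 8.52 and 8.26 in cKO lenses and 8.23 and 7.99 in Control lenses, a change of 0.27 (-0.11 to 0.66). Kif5a did not pass the detection filter.

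Of the kinesin-2 motor subunits Kif3a, Kif3b and Kif3c, 2 were elevated, against 6.01% of all genes. Kif3a forms the motor of heterotrimeric kinesin-2, which moves cargo in cilia and in the cytoplasm, with Kif3b or Kif3c. Kif3a had log2 signals of 9.88 and 10.23 in cKO lenses and 9.44 and 9.38 in Control lenses, a log2 change of 0.65 ± 0.16 (SE, adjusted p = 0.047). Its probes gave 0.37 and 0.93, and with only the brighter probe the gene was not called (0.37, adjusted p = 0.21). Kif3c had 7.20 and 7.51 in cKO lenses and 6.63 and 6.73 in Control lenses, a change of 0.68 ± 0.16 (adjusted p = 0.039), with 0.53 and 0.82 for its probes. In both genes the cKO lenses were above the Control lenses without overlap. Kif3b (0.30, 95% interval -0.04 to 0.64) and the accessory subunit Kifap3 (0.44 ± 0.13, adjusted p = 0.075) were higher in both cKO lenses and were not called. Leaving out any of the 4 lenses ended the calls of Kif3a (0.48 to 0.83, adjusted p = 0.064 to 0.29) and of Kif3c (0.52 to 0.82, adjusted p = 0.068 to 0.26), each with the largest loss without cKO B.

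Among the other kinesins outside cell division, Kif26b and Kif1a were elevated and Kif21a was reduced. Kif26b belongs to a kinesin family thought to lack motor activity and is known from kidney development and cell adhesion. Its probe, on chromosome 1 at 180862651 to 180862700, had log2 signals of 6.51 and 6.76 in cKO lenses and 5.74 and 5.66 in Control lenses. The unnormalized intensity was 141.8 and 177.2 against 77.5 and 62.8. The cKO lenses were higher on either scale, though on the unnormalized one the cKO arrays were brighter as a whole. The log2 change was 0.94 ± 0.15 (SE, adjusted p = 0.015). The call held with cKO A (1.04, adjusted p = 0.033) or Control A (0.99, adjusted p = 0.034) left out, but not with cKO B (0.79, adjusted p = 0.12) or Control B (0.92, adjusted p = 0.072) left out.

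Kif1a carries synaptic vesicle precursors in axons. It had log2 signals of 7.20 and 7.04 in cKO lenses and 6.38 and 6.61 in Control lenses, and its unnormalized intensity was 216.3 and 208.9 against 102.3 and 93.3. The log2 change was 0.62 ± 0.15 (SE, adjusted p = 0.045), and leaving out any lens ended the call (0.51 to 0.76, adjusted p = 0.080 to 0.22). The markers of neurons and retina, given beside Tubb4a, were below the detection filter in 13 of 14 cases. Pde6b, the one detected, was above background on the cKO arrays alone, as given there, and its part in the value of Kif1a was not tested. The related motor Kif1b had 7 probes with log2 changes from -0.14 to 0.54 and a mean of 0.17 (adjusted p = 0.43).

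Kif21a, a kinesin that limits microtubule growth near the cell cortex, had log2 signals of 6.97 and 7.17 in cKO lenses and 7.89 and 7.57 in Control lenses. The log2 change was -0.66 ± 0.17 (SE, adjusted p = 0.049). The unnormalized intensity was 188.0 and 227.4 in cKO lenses and 227.4 and 151.3 in Control lenses and overlapped, and without normalization between arrays the log2 change was 0.17. It stayed 0.40 below the median of all genes there. Leaving out any lens ended the call (-0.83 to -0.50, adjusted p = 0.077 to 0.22).

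Of 15 kinesins listed for transport, which include Klc1 and other genes described above, 4 were called elevated and 1 reduced (33.3% called, against 11.6% of all genes), with a median log2 change of 0.25. Of 6 detected kinesins listed for cell division, 1 was called (16.7%, against 11.6% of all genes), reduced, with a median of -0.10. The sign of that median rested on a probe of Kif23 described below, since it was 0.10 with only the probes named by the rule, and on Control B, without which it was 0.01. The called gene was Kif2c, which shortens microtubules at the kinetochore. Its log2 signal was 5.25 and 5.08 in cKO lenses and 5.92 and 5.89 in Control lenses, with no overlap, and the log2 change was -0.74 ± 0.14 (SE, adjusted p = 0.023). The unnormalized intensity was 72.7 and 69.8 in cKO lenses and 83.6 and 68.2 in Control lenses, which overlap. Without normalization between arrays the change was -0.20 (adjusted p = 0.45), where the median of all genes was 0.57. Kif2c was also not called with a background offset of 50 (-0.43) or without background correction (-0.46). The call held with Control A left out (-0.73, adjusted p = 0.047) but not with cKO A (-0.79, adjusted p = 0.074), cKO B (-0.62, adjusted p = 0.18) or Control B (-0.81, adjusted p = 0.077) left out.

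The other kinesins of division were not called. Kif22, which moves chromosome arms, had log2 signals of 6.94 and 6.75 in cKO lenses and 7.48 and 7.26 in Control lenses (log2 change -0.53 ± 0.15, adjusted p = 0.066). Kif11, the motor that separates spindle poles, overlapped between the groups (0.03, 95% interval -0.32 to 0.39). Its log2 signals of 4.70 to 4.95 lay near the lowest detected signals of the arrays (4.56 to 4.76), so that this interval does not show the absence of a change. Kif15 (0.32) and the X-linked Kif4 (0.18) were not called. The probes of Kif23, a motor of the central spindle, disagreed. A probe that the files name Knsl5, assigned to Kif23 through an older name, fell by 1.11 on the normalized log2 scale. Its log2 signals were 11.10 and 11.32 in Control lenses and 10.08 and 10.13 in cKO lenses. The unnormalized intensities lay closer, at 1929.3 and 1743.2 in Control lenses and 1426.2 and 1599.6 in cKO lenses. The probes named Kif23 changed by 0.40 and by 0.0019, with intensities of 52.4 to 77.3. The Knsl5 probe differed from the others of the gene (-1.31, adjusted p = 0.0082), as did one of the others (0.95, adjusted p = 0.042), so that the mean of Kif23 (-0.24, adjusted p = 0.34) stands for no single probe. Whether the far brighter Knsl5 probe reads Kif23 was not tested. Without it Kif23 had a log2 change of 0.20 (adjusted p = 0.43), and with only the brightest probe, which it is, Kif23 was called reduced (-1.11, adjusted p = 0.0081).

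Beside these, 11 of 16 proliferation markers were tested and 0 were called by limma, with 0 at an unadjusted p under 0.05 and a median log2 change of -0.04. Their summed linear signal was 755.3 and 752.2 in cKO lenses and 773.8 and 804.4 in Control lenses. Of 5 tested markers of the lens epithelium, Foxe3 was reduced (-0.79, adjusted p = 0.018) and the others were not called, with a median of -0.79 and all 5 means lower in cKO lenses. The groups did not overlap for 4 of the 5, against 62.3% of all genes, and 4 had an unadjusted p under 0.05. Their summed linear signal was 944.9 and 1040 in cKO lenses and 1476 and 1252 in Control lenses. The part of the epithelium in the values of Kif2c and Kif22 was not tested.

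In the dynein and dynactin family, 2 of 5 tested chains of cytoplasmic dynein 1 were elevated, against 6.01% of all genes. The family as a whole was called at 11.8%, near the share of all genes. Dync1li2, a light intermediate chain that binds cargo adaptors, had log2 signals of 7.83 and 7.66 in cKO lenses and 6.91 and 6.68 in Control lenses. Its probe lies on chromosome 8 at 106943367 to 106943416, and its unnormalized intensity was 327.5 and 309.5 in cKO lenses and 132.4 and 96.0 in Control lenses. The groups did not overlap on either scale, though on the unnormalized one the median log2 change of all genes was 0.57. The log2 change was 0.95 ± 0.15 (SE, adjusted p = 0.015), or 1.93-fold. The call held with Control A left out (1.08, adjusted p = 0.027) but not with cKO A (0.85, adjusted p = 0.071), cKO B (1.03, adjusted p = 0.077) or Control B (0.84, adjusted p = 0.072) left out.

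The other light intermediate chain, Dync1li1, lay lower in both cKO lenses. Its log2 signal was 6.84 and 6.65 in cKO lenses and 6.92 and 7.52 in Control lenses, a log2 change of -0.48 (95% interval -0.99 to 0.03, adjusted p = 0.18), and it was not called. The groups did not overlap, with Control B well above the other 3 lenses. The value rested on the Control lenses, since it was -0.79 (called, adjusted p = 0.043) with Control A left out and -0.18 (adjusted p = 0.51) with Control B left out. The difference between both chains was not tested.

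Dync1i2, an intermediate chain that joins dynein to dynactin, was elevated. Its log2 signal was 8.88 and 8.83 in cKO lenses and 8.32 and 8.17 in Control lenses, and the log2 change was 0.61 ± 0.14 (SE, adjusted p = 0.036). Its 3 probes gave 0.51, 0.58 and 0.75. The call held with Control A left out (0.69, adjusted p = 0.046) but not with cKO A (0.58, adjusted p = 0.16), cKO B (0.63, adjusted p = 0.19) or Control B (0.54, adjusted p = 0.12) left out. Dync1i1, the other intermediate chain, was also higher in both cKO lenses (0.32, 95% interval -0.02 to 0.65) and was not called.

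The heavy chain Dync1h1, which is the motor itself, had log2 signals of 9.39 and 8.85 in cKO lenses and 8.38 and 8.56 in Control lenses. The cKO lenses were higher and differed from each other by more than the Control lenses did. The log2 change of 0.65 ± 0.20 (SE) did not pass the test (adjusted p = 0.079), and it was 0.37 with cKO A left out and 0.92 with cKO B left out. The groups did not overlap for any of the 5 tested dynein 1 chains, with 4 higher and 1 lower in cKO lenses, where 62.3% of all genes did not overlap. Of the dynein 2 chains, which work in cilia, Dync2li1 (0.39, 95% interval 0.06 to 0.73, adjusted p = 0.11) was higher in both cKO lenses, and Dync2h1 (-0.18) overlapped.

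The small light chains and dynactin were not called by limma. Among 4 light chains, 1 had an unadjusted p under 0.05, Dynlrb1 (0.47 ± 0.15, adjusted p = 0.087), with log2 signals of 10.64 and 10.78 in cKO lenses and 10.36 and 10.13 in Control lenses. Dynll1 (-0.18, 95% interval -0.51 to 0.15) and Dynll2 (-0.28, -0.62 to 0.07), small chains shared with other complexes, had lower log2 signals in both cKO lenses, a direction that turned relative to all genes under 3 other scalings (0.0806 and 0.0105). Among 6 dynactin subunits, 1 had an unadjusted p under 0.05, Dctn4 (0.43 ± 0.14, adjusted p = 0.084). The shoulder subunits Dctn2 (0.05) and Dctn3 (0.02) overlapped between the groups. Dctn1, which encodes the large subunit that holds microtubules, had log2 signals of 5.22 and 5.40 in cKO lenses and 4.66 and 5.57 in Control lenses. Its Control lenses spanned both cKO lenses, and the interval of its change (0.20, 95% interval -0.47 to 0.86) is the widest among the named dynactin subunits.

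Genes that act on microtubules or motors, but are not members, were taken from fixed lists. Of 28 tested microtubule regulators, 3 were elevated and 2 reduced (17.9% called, against 11.6% of all genes), with a median log2 change of 0.27, or 0.26 with the 3 genes detected on no Control array at their bounds. With 1 lens left out, 0 to 4 of them were called. Elevated were Map7d1 (1.04), a relative of the kinesin-1 recruiter Map7, the plus-end protein Clip1 (0.75), and Stmn1, which sequesters tubulin. Stmn1 was not above background on either Control array, and its signal in cKO lenses was higher by at least 1.21-fold (adjusted p = 0.045), so that its change is known only as a bound below the fold threshold. Reduced were Tacc1 (-1.29) and Map7 itself (-0.70). The list of motor adaptors and regulators had 21 tested genes, and it also holds the kinesin motors Kifc1, Kifc2 and Kifc3, whose symbols the rule does not take and which were not called. In it the dynein regulators Pafah1b1 (0.76) and Bicd2 (0.75) were elevated, and Mapk8ip1 (-0.78), which links kinesin-1 to cargo, was reduced, with a median of 0.05 for the list (14.3% called, against 11.6% of all genes, and 0 to 2 genes with 1 lens left out).

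Of 18 tested genes for tubulin folding and modification, 2 were elevated and 2 reduced (22.2% called, against 11.6% of all genes), with a median of -0.01, and 1 to 5 were called with 1 lens left out. Svbp encodes the partner of the vasohibins, which remove the last tyrosine of alpha-tubulin. Its log2 signal was 11.11 and 10.63 in cKO lenses and 12.82 and 12.73 in Control lenses, a log2 change of -1.90 ± 0.19 (SE, adjusted p = 0.0044). Vash1, the vasohibin tested, was not called (-0.13). Atat1, which acetylates alpha-tubulin, had 6.33 and 6.00 in cKO lenses and 5.33 and 4.91 in Control lenses (1.04 ± 0.20, adjusted p = 0.022), and Sirt2, which can remove this acetyl group, had 8.18 and 8.10 against 8.88 and 8.96 (-0.78 ± 0.14, adjusted p = 0.019). In both genes the groups did not overlap. Ttll7, which adds glutamate chains to beta-tubulin, was elevated (0.74 ± 0.14, adjusted p = 0.022), and the deacetylase Hdac6 was not called (0.01).

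The 25 members below the detection filter included Tubb3, Tubb2a, Tuba4a, Tuba8, Kif17, Kif18a, Kif20a and Kif20b, none of them with a detected probe on any array, and Kif14 and Kif5a, each with detection on 1 array. The others with no detected probe were Tubal3, Tubb1, Tubgcp3, Tubgcp5, Tubgcp6, Kif2b, Kif7, Kif9, Kif12, Kif21b, Kif24, Kif26a and Dynlt1b, and Tubgcp4 and Dynlrb2 were detected on 1 array. No change is given for the probes of these genes that the rule took. Among the 53 detected members, 47 were detected on all 4 arrays. Kif27 was detected on 1 array of each group, and 5 members (Tuba1c, Tuba3b, Kif5b, Kif16b and Dctn1) were detected on both cKO arrays and 1 Control array. Of these 6, Tuba1c was called. Of the 17 members with more than 1 detected probe, 5 had probes with changes of both signs (Dctn2, Dctn3, Kif1b, Kif23 and Klc2), none of them called. Tubulin genes resemble each other closely. The longest run of bases shared by a detected tubulin probe and a probe of another tubulin gene was 11 of 50. Such probes lie at different places in their transcripts, so that this run does not bear on binding to the RNA of another tubulin gene. That binding was not tested.

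**Figure D4:**
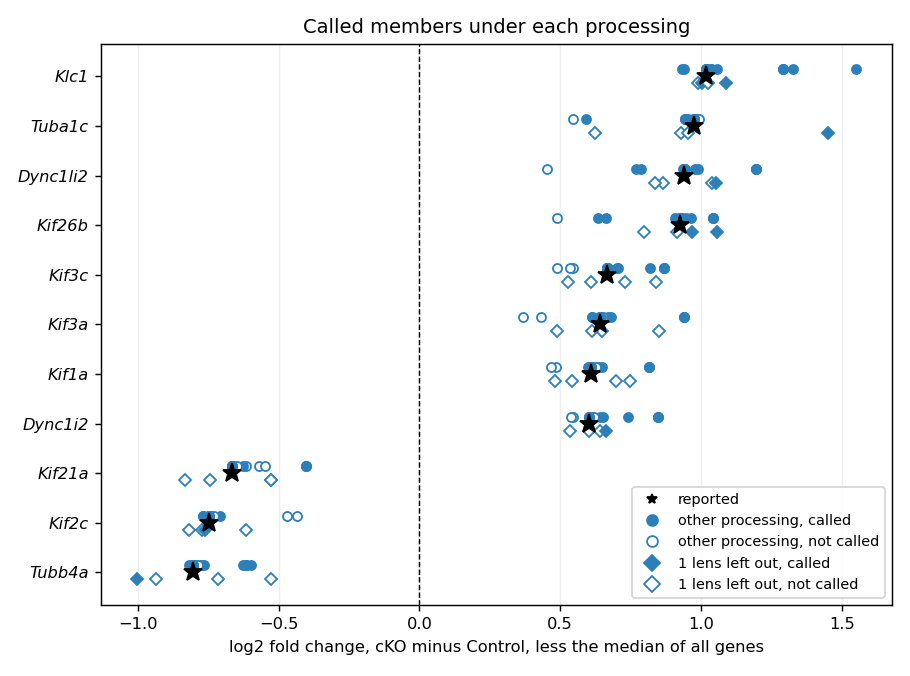
Log2 fold change of each called member, cKO minus Control, less the median of all genes, as reported (star), under other processing (circles) and with 1 lens left out (diamonds), filled where the gene was called. The sign relative to all genes was kept at every point shown, while most of the diamonds are open, with 9 of 44 filled.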

How the data were processed

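The authors deposited signal intensity from MouseWG-6 arrays, unnormalized and, per the file headers, rank-invariant normalized, with detection p-values. A total of 45263 probes was read. Genes were named through RefSeq (GRCm38.p6), so that 6 detected probes under older names joined the values of Dync2h1, Dync1i2, Dynll1, Klc1 and Kif23. The unnormalized intensity was corrected for background (neqc of limma 3.58.1, R 4.3.3, offset 16), brought to common quantiles and log2 transformed. Probes detected on at least 2 arrays were averaged per gene and fitted with lmFit and eBayes, with two-sided p-values adjusted by Benjamini-Hochberg across the 11516 genes. The thresholds follow the study, which used edgeR, a model for counts not applied here. A bound on a fold sets a gene undetected in a group at the lowest signal of detected probes there, or at its own value where higher. The fit was tested on simulated data. Tables were read with Python 3.11.15. The genes named are every called member and a fixed list of principal tubulins and motors. Members and lists were chosen with earlier results of these data known. The few arrays limit the precision, and an exact permutation test of 2 against 2 lenses cannot give a p under 0.333. No further column of per-sample values was left unmapped.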

Additional observations from a re-analysis of the deposited data

How the results depend on the processing

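The 11 calls among members (8 elevated, 3 reduced) were compared under 15 other ways of processing all 4 arrays and with each lens left out. The deposited normalized table with 16 added gave 5 calls (3 elevated), or 9.43% of members against 10.3% of all genes. Normexp with an offset of 50 gave 5 (4 elevated, 1 reduced, 9.43% against 6.85%) and no background correction 6 (5 elevated, 1 reduced, 11.3% against 7.88%). With no detection filter 1 member was called, elevated, with 0 reduced and 28850 genes tested (1.89% against 0.718%). With no normalization between arrays 35 members were called elevated and 0 reduced, and with the same median over all probes 33 and 0. There 50.3% and 47.0% of all genes were called and all genes had a median log2 change of 0.57 and 0.53. With the same median over probes detected on all 4 arrays 5 members were reduced (14 called, 26.4% against 23.4%). In these 3 scalings the median relative to all genes was 0.289 for tubulins, 0.0215 for kinesins and 0.295 for dynein and dynactin, against 0.10, 0.13 and 0.04 in the reported values. Relative to all genes, Dynll1 was 0.0806 and Dynll2 0.0105 higher in these scalings, opposite in sign to the reported values, as were Dctn5 (0.08) and Dctn6 (0.01). Their calls without normalization and, for Dynll1 and Dctn5, at the same median rest on the shift of all genes. Tuba1b turned from 0.245 to -0.183 with the deposited table. For the called members, relative values kept their sign in all 164 other fits, and 34 of these did not pass the thresholds. Klc1 was called in all 15, Dync1li2 and Kif26b in 14 each.

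With 1 lens left out, where the spread comes from the other group alone, 0 to 6 members were called, 0 to 4 of them elevated and 0 to 2 reduced (3 called with cKO A left out, 0 with cKO B, 6 with Control A and 1 with Control B, against 5.6%, 1.56%, 12.2% and 1.52% of all genes). The relative medians then ranged from 0.04 to 0.17 for tubulins, 0.12 to 0.20 for kinesins and -0.11 to 0.18 for dynein and dynactin, the lowest without Control A. The cause of these shifts was not tested. With the replicate letter as a block the number of member calls was 11, the same members, while the share of all genes called rose from 11.6% to 14.6%, and the letters do not pair the lenses (correlation of A minus B differences across genes -0.01). An alternative chosen after seeing the data, with only the probes that carry the rule's symbols, also gave 11 calls. Tuba1c and Kif5b were above background on only 1 Control array.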

Other observations

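Genes of the same families stood on the arrays under other names, which the rule did not take. Map1b, a microtubule-associated protein named Mtap1b in the files, had log2 signals of 6.62 and 6.09 in cKO lenses and 6.61 and 6.35 in Control lenses, a log2 change of -0.12 ± 0.21 (SE, limma adjusted p = 0.73). Map1s, named Mtap1s, had a log2 change of 0.06 ± 0.20 (adjusted p = 0.87), with overlapping groups. The mitotic kinesin Kif18b, named 3000004C01Rik, had 0.13 ± 0.15 (adjusted p = 0.60). Tubgcp4, a member of the gamma-tubulin ring complex that did not pass the detection filter with its named probe, was detected with a probe named 4932441P04Rik. It had log2 signals of 4.58 and 4.80 in cKO lenses and 5.48 and 4.88 in Control lenses (-0.49 ± 0.22, adjusted p = 0.17). None of these 4 genes was called.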
